A study of Homo sapiens with 12 samples.

Results

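The genes described here are the named long noncoding RNA genes expressed in HCT116, a human colorectal carcinoma cell line. They are the gene symbols of 4 naming schemes (LINC and a number, SNHG and a number, a microRNA host gene ending in HG, or a symbol ending in -AS and a digit) that held at least 120 read counts summed over the 12 libraries of the study. Of 56634 symbols in the deposited table, 2196 followed these schemes and 224 of them reached the threshold. The 224 were 139 antisense genes, 61 LINC genes, 18 SNHG genes and 6 microRNA host genes. Before the threshold the schemes held 1163, 967, 22 and 44 symbols, of which 448, 605, 2 and 21 had no count in any library. Just outside the threshold were LINC00960 and LINC00896 with 117 counts each and ARHGEF19-AS1 with 118. Just inside were LINC01311 with 120, TMEM9B-AS1 with 122 and TSPEAR-AS2 with 123. All 224 passed the filter on low counts and were among the 13084 genes tested. The genes were chosen by this measured sum of counts, so their level is described here and not tested.

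HCT116 cells were given the vehicle, the inhibitor Senexin B, the cytokine TNF or both agents, and RNA was sequenced from 3 biological replicates of each of the 4 groups. Control cells had 0.1% DMSO for 3 hours. Senexin B cells had the inhibitor at 1 µM for 3 hours, and TNF cells had 0.1% DMSO for 1 hour and were then kept with 10 ng/mL of the cytokine for 2 hours. In the TNF plus Senexin B group the inhibitor replaced DMSO before and during the same TNF treatment. All groups were the same line from ATCC, and the labels name no edited gene in any of them. Senexin B blocks CDK8 and CDK19, the kinases of the Mediator complex, and the series title asks how this inhibition affects these cells with and without TNF. The p-values below measure the spread between these biological replicates of 1 cell line.

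Long noncoding RNAs are transcripts without a long reading frame, and many are transcribed by RNA polymerase II, spliced and polyadenylated like messenger RNAs. LINC symbols mark genes that lie between coding genes, SNHG genes carry small nucleolar RNAs in their introns, and MIR host genes carry microRNA hairpins. Antisense genes are named for the coding gene they lie against or next to, on the other strand. Some such names are historical, because a transcript can later be found to start divergently from the promoter of its neighbour or to encode a small protein.

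Library totals ranged from 5835226 to 9281176 counts, and the long noncoding RNA genes held between 0.306% and 0.319% of them in every library. NFKBIA, a direct NF-kB target gene used to check the TNF labels, had 25.1 to 25.5 CPM (counts scaled to library size) in control libraries and 289 to 298 in TNF libraries. CDK8 and CDK19, the targets of Senexin B, were not called in any comparison. All 7 epithelial markers exceeded 1 CPM, with a summed level of 4057 to 4813 CPM. Of 5 colon markers only CDX2 did, and VIL1 and CDX1 had no count in any library. Blood markers summed to at most 0.539 CPM, endothelial markers to at most 0.977 CPM, and fibroblast markers to 7.46 to 11.2 CPM, nearly all of it COL1A1, with DCN and LUM at 0. TNF replicate 1 and control replicate 1 stood apart from the other replicates of their groups, with a chi-square per degree of freedom of 2.56 to 2.93 against 1.23 to 1.78 for the other pairs of replicates.

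A few of the genes held most of the signal. Summed counts ranged from 120 to 67511 with a median of 381, and 58 of the 224 had a mean of at least 10 CPM. LRRC75A-AS1, which RefSeq now names SNHG29, held 21.9% of all counts of the 224 genes, and the 10 highest held 51.4%. Per kilobase of exon (221 genes had a length in GENCODE 29), the mean over the 12 libraries was 183 ± 3.88 CPM per kb (SD, n = 12) for LRRC75A-AS1 and 84.9 ± 4.25 for SNHG6. SNHG1 followed at 41.1 ± 2.64 CPM per kb, then SNHG16 at 37.5 ± 2.07 and SNHG8 at 35.2 ± 2.42. The ranges over libraries of the last 3 overlapped, from 36.5 to 45.0 for SNHG1, 32.6 to 40.4 for SNHG16 and 32.2 to 38.1 for SNHG8, so their order is within the spread. The first 5 places by this measure therefore belonged to small nucleolar RNA hosts. LINC00998 came next at 28.8 ± 1.73 CPM per kb, and RefSeq lists it as SMIM30, a protein-coding gene.

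Names and current annotation differed for many of the genes. RefSeq held all 224, 42 of them under another symbol. It names 20 as divergent transcripts of a neighbouring promoter and lists 8 as protein coding: LINC00116 (MTLN), NCBP2-AS2 (NCBP2AS2), LINC00998 (SMIM30), FAM83H-AS1 (IQANK1), LINC00094 (BRD3OS), LINC00493 (SMIM26), MMP24-AS1 (MMP24OS) and LINC01420 (NBDY). These 8 are kept below because the rule goes by name.

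Changes of these genes were few and small. In bulk RNA, fewer cells with a transcript and less of it in each cell cannot be told apart. Over the 4 pairwise comparisons, which share libraries and are therefore set side by side, 12 of the 224 genes were called (Benjamini-Hochberg adjusted p under 0.05 over all genes tested, edgeR's quasi-likelihood test), in 16 calls of 1.13-fold to 1.46-fold. Genes called in 2 comparisons numbered 4: SNHG7, OTUD6B-AS1, BAIAP2-AS1 and LINC00511. Every call fell on a gene with at least 1000 summed counts. Among the 168 genes below that count edgeR called 0 in each comparison, while 11 had an unadjusted p under 0.05 for TNF against control, 10 for Senexin B against control, 8 for the inhibitor added to TNF and 7 for TNF added to the inhibitor. With the threshold lowered to 60 summed counts, edgeR called 7 genes for TNF, beside 6 at 120 counts. For TNF added to the inhibitor it called 4, beside 2. The added genes held under 120 counts each. DESeq2 called none of the 224 genes that edgeR did not. It gave an adjusted p to only 145, 70 and 52 of the 224 genes for TNF, Senexin B and the inhibitor added to TNF. The rest could not be called there. For TNF added to the inhibitor all 224 had one. Of all genes tested in the ranges of 120 to under 300 and 300 to under 1000 counts, 1.98% and 5.06% were called for TNF, 0.228% and 0.793% for Senexin B, 0.761% and 1.59% for the inhibitor added to TNF, and 1.67% and 4.02% for TNF added to the inhibitor. The standard error of the log2 fold change for TNF had a median of 0.34 in genes of 120 to under 300 counts, 0.21 from there to under 1000, 0.12 from there to under 3000 and 0.07 at 3000 or more among the long noncoding RNA genes, and of 0.33, 0.19, 0.11 and 0.06 among all genes of these ranges. The part of depth in the lack of calls was not tested. The plot of levels by library shows the 12 called genes.

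**Figure D1:**
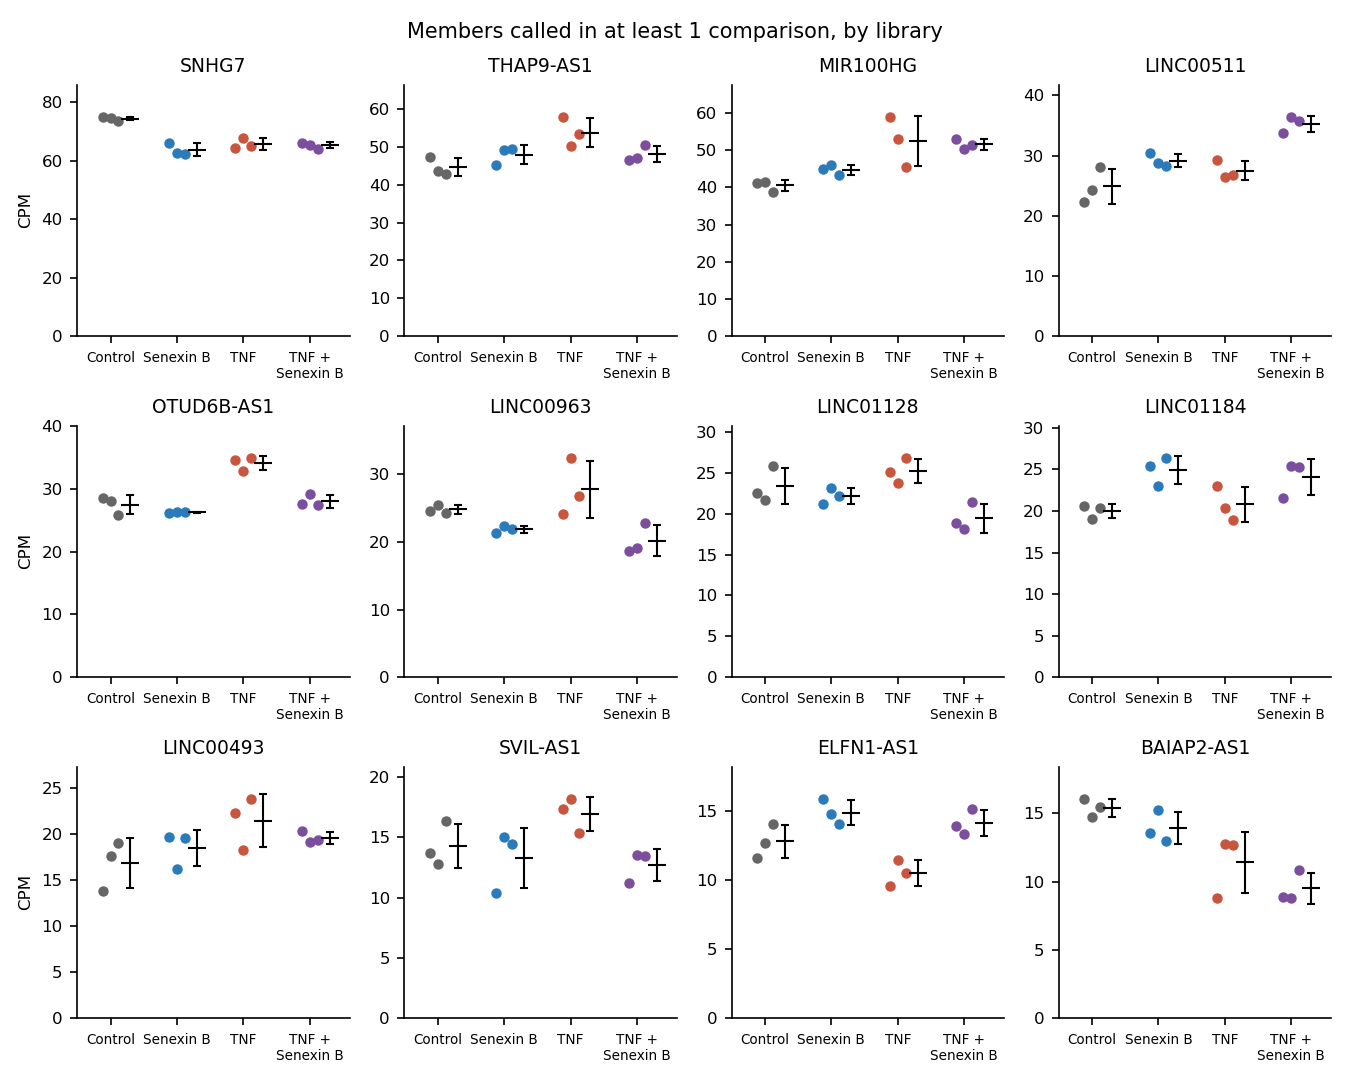
CPM in each library (dots, replicates 1 to 3 from left to right) for the 12 named long noncoding RNA genes called in at least 1 comparison, with the group mean and SD (bars, n = 3), each vertical axis starting at 0. OTUD6B-AS1 is at 32.9 to 34.8 CPM in the TNF libraries and at or below 29.2 in all others, and LINC00511 is at 33.7 or above only in the TNF plus Senexin B libraries.

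TNF for 2 hours changed 6 of the 224 genes (2.68%), 4 higher and 2 lower, where 10% of all genes tested were called, 5.81% higher and 4.2% lower. The genes that rose were MIR100HG, OTUD6B-AS1, THAP9-AS1 and LINC00493, and those that fell were BAIAP2-AS1 and SNHG7. At an unadjusted p under 0.05 the count was 26 of 224 (11.6%), against 22.7% of all genes. The median log2 fold change was -0.02 over the 224 genes and -0.01 over all genes tested. In genes of 1000 to under 3000 counts 3 of 38 were called (7.89%, against 8.91% of all genes of that range), and in genes of 3000 or more 3 of 18 (16.7%, against 14.2%). With control replicate 1 and TNF replicate 1 both left out, 5 genes were called, of which 3 were among the 6. BAIAP2-AS1 (adjusted p = 0.359), SNHG7 (0.143) and LINC00493 (0.438) were lost, and NR2F1-AS1 (0.38, 0.0348) and EIF3J-AS1 (-0.97, 0.0498) were called in their place.

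MIR100HG, the host gene of the let-7a-2, miR-100 and miR-125b-1 hairpins, rose 1.28-fold with TNF. It lies on the minus strand of chromosome 11 (122028327 to 122556721, GRCh38). Its level was 41.2, 41.5 and 38.8 CPM in control replicates 1, 2 and 3, and 58.8, 52.9 and 45.6 in the TNF replicates. All 3 TNF libraries were above all 3 control libraries, although TNF replicate 1 and TNF replicate 3 differed by more than the lowest TNF replicate differed from the highest control replicate. The log2 fold change was 0.36 ± 0.08 (SE), with an adjusted p of 0.000466 in edgeR's quasi-likelihood test. The call held without any single library (log2 fold change 0.28 to 0.46) and in the 9 other settings tried. Without TNF the inhibitor gave 45.0, 45.9 and 43.2 CPM, a log2 difference of 0.14 ± 0.08 from control (adjusted p = 0.39), and TNF plus Senexin B gave 53.0, 50.2 and 51.4, a difference of -0.01 ± 0.07 from TNF alone (adjusted p = 0.964).

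The microRNAs that lie within the host genes are shown because they are the products the host names refer to, read from RefSeq on GRCh38.p14 with the seed, bases 2 to 8, in capitals. MIR100HG spans 4 hairpins with 7 annotated mature microRNAs, and the main arms of its 3 named hairpins have different seeds. The let-7a-5p of MIR100HG is the same sequence as that of MIRLET7BHG and shares its seed with let-7b-5p. The polyadenylated RNA counted here is the host transcript, so the values say nothing of the level of the mature microRNAs.
hsa-miR-100-5p (MIR100HG): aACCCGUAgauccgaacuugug
hsa-miR-125b-5p (MIR100HG): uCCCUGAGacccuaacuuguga
hsa-let-7a-5p (MIR100HG): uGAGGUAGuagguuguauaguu
hsa-let-7b-5p (MIRLET7BHG): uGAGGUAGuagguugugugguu
hsa-miR-221-3p (MIR222HG): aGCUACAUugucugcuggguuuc
hsa-miR-222-3p (MIR222HG): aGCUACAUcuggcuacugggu
hsa-miR-17-5p (MIR17HG): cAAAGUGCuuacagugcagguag
hsa-miR-20a-5p (MIR17HG): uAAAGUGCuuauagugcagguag
hsa-miR-22-3p (MIR22HG): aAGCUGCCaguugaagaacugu
The pairs miR-221-3p with miR-222-3p and miR-17-5p with miR-20a-5p each share a seed within their host.

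The other 5 host genes had between 153 and 378 summed counts and passed no test in any comparison. MIR600HG had 378 counts, MIR222HG 309, MIR22HG 198, MIR17HG 156 and MIRLET7BHG 153. MIR222HG, host of the miR-221 and miR-222 pair, had 2.41, 2.00 and 2.54 CPM in TNF plus Senexin B libraries against 2.95, 3.68 and 3.66 in TNF libraries. These groups did not overlap, but the log2 difference of -0.58 ± 0.27 had an adjusted p of 0.21. MIR17HG, host of the miR-17-92 cluster, had 2.16, 2.37 and 1.55 CPM in control libraries and 1.21, 0.981 and 1.71 in TNF libraries, a difference of -0.61 ± 0.35 (adjusted p = 0.289). Its groups overlapped, and its standard error was far above that of MIR100HG. Below the threshold were MIR210HG with 64 counts, MIR31HG with 58, MIR155HG with 7 and MIR3142HG with 0, which allows up to 3 counts by counting error alone. MIR155HG, a known NF-kB target in immune cells, had 2 counts over the control libraries, 1 over Senexin B, 3 over TNF and 1 over TNF plus Senexin B, so a response was not detectable at this depth.

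OTUD6B-AS1 and THAP9-AS1 were the 2 antisense genes that rose with TNF. OTUD6B-AS1 had 28.6, 28.0 and 25.7 CPM in control and 34.5, 32.9 and 34.8 in TNF libraries, a log2 fold change of 0.31 ± 0.08 (adjusted p = 0.00717, 1.24-fold). Every TNF library was above every control library. THAP9-AS1 (chromosome 4, 82893009 to 82900960, minus strand) had 47.3, 43.7 and 42.8 CPM in control and 57.7, 50.2 and 53.3 in TNF libraries (0.26 ± 0.07, adjusted p = 0.00912), again without overlap. THAP9, the coding gene it is named for and the descendant of a DNA transposase, had 5.02 ± 1.11 CPM (SD, n = 3) in control and 6.62 ± 1.30 in TNF libraries, with 0.37 ± 0.19 and an adjusted p of 0.228. The call of OTUD6B-AS1 was lost without control replicate 3 (adjusted p = 0.0714), in DESeq2 (0.0526) and with offsets for GC content (0.0541). That of THAP9-AS1 was lost without TNF replicate 1 (0.0573) or control replicate 3 (0.0686).

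LINC00493 (chromosome 20, 18567347 to 18569563, plus strand), the SMIM26 gene of a small mitochondrial membrane protein, rose from 16.9 ± 2.71 to 21.5 ± 2.88 CPM (SD, n = 3), by 0.33 ± 0.11 (adjusted p = 0.0498). Its groups overlapped, with control libraries at 13.9, 17.7 and 19.1 CPM and TNF libraries at 22.4, 18.3 and 23.8. The call held only without control replicate 3, TNF replicate 2 or Senexin B replicate 2, and was lost without any of the other 9 libraries, where the adjusted p was at most 0.287.

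BAIAP2-AS1 (chromosome 17, 81029130 to 81034881, minus strand) fell by 0.40 ± 0.13 on the log2 scale with TNF (adjusted p = 0.0332). RefSeq names it BAIAP2-DT, a transcript that starts 241 bases from the start of BAIAP2 and runs the other way, and BAIAP2 itself encodes an adaptor protein of the actin cytoskeleton. It had 16.0, 14.7 and 15.5 CPM in control and 8.84, 12.8 and 12.7 in TNF libraries, without overlap, and TNF replicate 1 was the lowest. Without that library the fall was -0.27 with an adjusted p of 0.237, without control replicate 1 it was -0.37 (0.0868), and without control replicate 3 it was -0.39 (0.0964). The call was also lost in DESeq2 (0.14), with only the groups compared and with GC offsets (0.0963). In the presence of Senexin B the same gene had 13.6, 15.3 and 12.9 CPM without TNF and 8.92, 8.82 and 10.8 with TNF. That difference, -0.54 ± 0.13 (adjusted p = 0.00319, 1.46-fold), was called in every setting that left out a single library. BAIAP2 had 90.7 ± 4.71, 83.1 ± 1.31, 81.4 ± 7.12 and 74.7 ± 3.25 CPM in control, Senexin B, TNF and TNF plus Senexin B libraries, with -0.15 ± 0.06 for TNF (adjusted p = 0.0982) and -0.15 ± 0.06 for TNF added to the inhibitor (adjusted p = 0.133).

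SNHG7 (chromosome 9, 136721366 to 136728184, minus strand) fell by 0.18 ± 0.06 with TNF (adjusted p = 0.0417) and by 0.22 ± 0.06 with Senexin B (adjusted p = 0.0139). The 2 comparisons share the control libraries, which were at 74.8, 74.6 and 73.7 CPM, above all 9 other libraries. Senexin B libraries were at 66.2, 62.6 and 62.3 CPM, TNF libraries at 64.16, 67.82 and 64.98, and libraries with both at 66.0, 65.5 and 64.1. Neither comparison between the last 3 groups that was fitted was called, with -0.01 ± 0.06 for the inhibitor added to TNF and 0.03 ± 0.06 for TNF added to the inhibitor. With offsets for GC content the TNF difference was -0.01 (adjusted p = 0.953), while the Senexin B difference was -0.24 (0.00176). The TNF call was lost without 7 of the 12 libraries: all 3 control replicates, TNF replicates 1 and 3, Senexin B replicate 2 and TNF plus Senexin B replicate 2 (adjusted p from 0.0509 to 0.115). It was also lost in DESeq2 (0.129), with no filter on low counts (0.1085) and with only the groups compared (0.0942). The Senexin B call was lost without control replicate 1 or 2 or Senexin B replicate 2 or 3 (0.0507 to 0.0999) and in DESeq2 (0.0584).

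The other 17 SNHG genes passed no test in the 4 comparisons fitted over all 12 libraries. For TNF the 18 genes had a median log2 fold change of -0.12, against -0.01 over all genes, with 7 of 18 above 0 and 4 with an unadjusted p under 0.05 (22.2%, against 22.7% of all genes). SNHG16 had 191 ± 15.1 CPM (SD, n = 3) in control and 206 ± 10.4 in TNF libraries, a difference of 0.10 ± 0.05 (adjusted p = 0.191). SNHG1 had 154 ± 6.10 and 166 ± 4.09 CPM (0.10 ± 0.05, adjusted p = 0.224). SNHG6 had 104 ± 6.96 and 108 ± 2.99 CPM (0.05 ± 0.06, adjusted p = 0.657). SNHG15 came nearest to a call among them, and without control replicate 2 its rise with TNF was called (0.27, adjusted p = 0.042). Its TNF libraries, at 39.0, 37.3 and 39.8 CPM, were above the control libraries at 31.3, 36.4 and 32.7 (0.21 ± 0.08, adjusted p = 0.0875) and above those with both agents at 33.1, 34.1 and 33.8 (-0.20 ± 0.08, adjusted p = 0.133). SNHG5, SNHG8, SNHG12 and SNHG17 differed from control by 0.04, -0.15, 0.07 and 0.05 with TNF and by -0.09, -0.08, -0.12 and -0.05 with Senexin B, each within 2 standard errors. The plot of the SNHG genes shows these values.

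**Figure D2:**
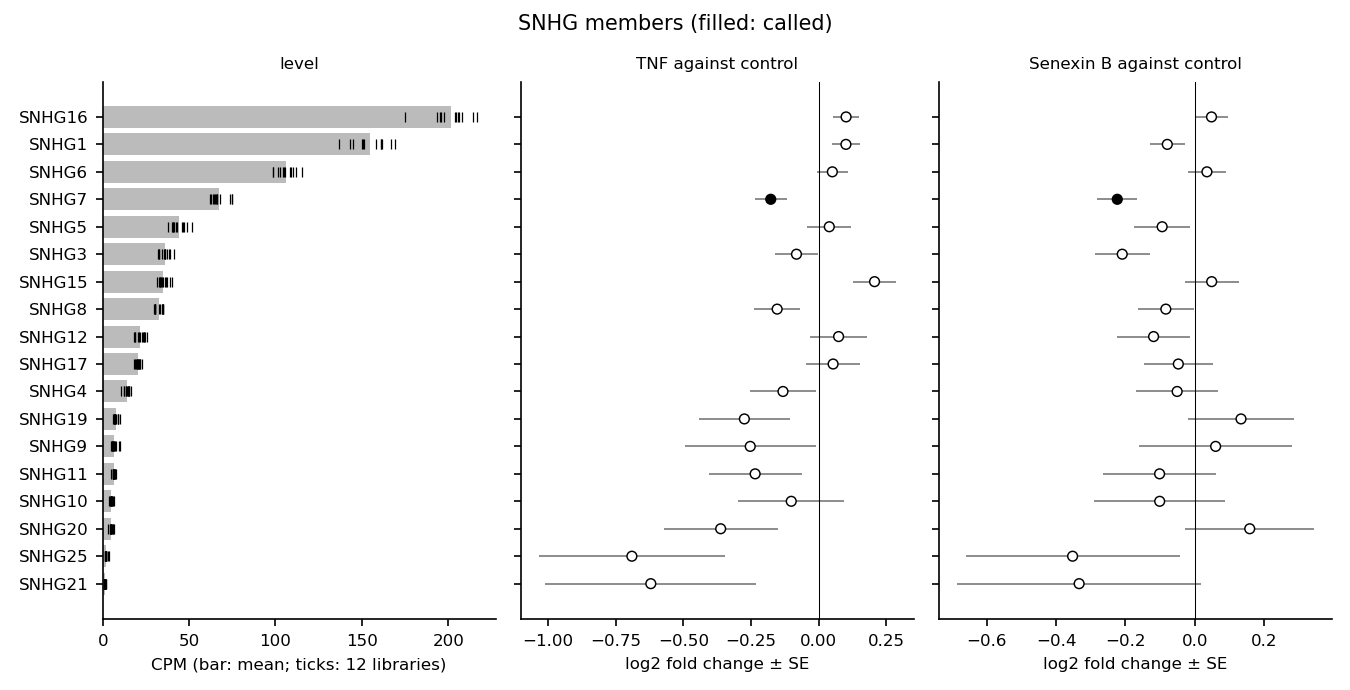
Left, level of each of the 18 SNHG genes in CPM (bar, mean; ticks, the 12 libraries), which is not divided by length and so does not rank the genes. Middle and right, log2 fold change ± SE for TNF and for Senexin B against control, with SNHG7, the gene called in both, filled at -0.18 and -0.22.

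Starts of SNHG genes are shown because many hosts of small nucleolar RNAs are known to begin with a pyrimidine run like that of ribosomal protein messenger RNAs. Each line gives 10 bases before and 20 bases from the RefSeq start on GRCh38.p14, in capitals a run of at least 5 pyrimidines counted from the C nearest to the start, among those within 5 bases of it, that opens such a run. Of 17 windows of 16 genes, 8 (47.1%) held such a run, against 21.1% of all 35116 promoter windows. The 16 include LRRC75A-AS1 (SNHG29) and LINC00888 (SNHG33), which are SNHG genes only by their RefSeq names and whose windows held no run. SNHG6 and SNHG15 had no window among the 17. SNHG7, the called gene, had a run of 5 bases, like SNHG5, and SNHG4 had the longest at 13, while SNHG1 had none at this start.
SNHG7 (chr9:136728165-136728194, minus strand): ccttctcgtCCTCTgcgtgcgccggaggct
SNHG4 (chr5:139274091-139274120, plus strand): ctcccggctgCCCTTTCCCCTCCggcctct
SNHG16 (chr17:76557754-76557783, plus strand): gggcggtctcgcgttCTTTTCgaggtcggc
SNHG5 (chr6:85678714-85678743, minus strand): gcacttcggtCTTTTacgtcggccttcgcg
SNHG1 (chr11:62855866-62855895, minus strand): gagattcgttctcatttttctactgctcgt
The match is a description of the letters, and the start used in HCT116 was not measured here.

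Senexin B alone changed 2 of the 224 genes (0.893%), where 3.04% of all genes tested were called, 1.53% higher and 1.51% lower. LINC01184 rose and SNHG7 fell, as described above, which is 1 of 38 genes of 1000 to under 3000 counts (2.63%, against 2.3% of all genes) and 1 of 18 at 3000 or more (5.56%, against 4.89%). At an unadjusted p under 0.05 there were 18 (8.04%), against 14.2% of all genes. LINC01184 (chromosome 5, 127940426 to 128083172, minus strand), which RefSeq names SLC12A2-DT, starts 594 bases from SLC12A2, the gene of a sodium, potassium and chloride cotransporter. It had 20.6, 19.0 and 20.3 CPM in control and 25.4, 23.1 and 26.3 in Senexin B libraries, without overlap (0.32 ± 0.10, adjusted p = 0.0451). In TNF libraries it had 23.1, 20.4 and 18.9 CPM and with both agents 21.6, 25.4 and 25.3, and that difference of 0.23 ± 0.10 was not called (adjusted p = 0.181), but with offsets for GC content it was 0.33 and called (0.0267). SLC12A2 had 116, 112 and 114 CPM in control and 99.1, 107 and 112 in Senexin B libraries (-0.11 ± 0.05, adjusted p = 0.34). The LINC01184 call was lost without any replicate of control, Senexin B replicate 1 or 3, or TNF plus Senexin B replicate 2 or 3 (adjusted p up to 0.227) and in DESeq2 (0.225).

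With TNF present, Senexin B changed 6 of the 224 genes (2.68%), 2 higher and 4 lower, where 5.45% of all genes tested were called, 2.9% higher and 2.55% lower. LINC00511 and ELFN1-AS1 rose, and LINC00963, LINC01128, SVIL-AS1 and OTUD6B-AS1 fell. All 6 had from 1000 to under 3000 summed counts, where 6 of 38 long noncoding RNA genes were called (15.8%) and 3.9% of all genes. In genes of 3000 counts or more edgeR called 0 of 18, against 8.72% of all genes, and DESeq2 also called 0. Over all 224 genes 22 had an unadjusted p under 0.05 (9.82%, against 18.9% of all genes), and the median log2 fold change was 0.02. Without control replicate 1 and TNF replicate 1, 3 genes were called, and without TNF plus Senexin B replicate 1 only 2 were, LINC00963 and LINC00511.

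LINC00963 fell by 0.47 ± 0.10 (adjusted p = 0.00107, 1.39-fold). It lies on the plus strand of chromosome 9 (129483451 to 129513686, GRCh38). It had 24.1, 32.4 and 26.9 CPM in TNF libraries and 18.7, 19.2 and 22.8 with both agents, without overlap, and TNF replicate 2 was the highest. The call held without each of the 12 libraries (log2 fold change -0.57 to -0.34, adjusted p at most 0.045). Control libraries were at 24.7, 25.5 and 24.3 CPM and Senexin B libraries at 21.3, 22.3 and 21.9, a difference of -0.18 ± 0.10 that was not called (adjusted p = 0.39). The interaction, which asks whether the 2 effects of the inhibitor differ, was -0.29 ± 0.14 (adjusted p = 0.805).

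LINC00511 rose by 0.37 ± 0.09 (adjusted p = 0.00388, 1.29-fold). It lies on the minus strand of chromosome 17 (72290091 to 72640472, GRCh38) and has been described as raised in several cancers. It had 29.3, 26.4 and 26.8 CPM in TNF libraries and 33.7, 36.3 and 35.7 with both agents, and the call held without each of the 12 libraries (adjusted p at most 0.0303). Compared with Senexin B alone, at 30.3, 28.8 and 28.3 CPM, TNF plus Senexin B was also higher (0.28 ± 0.08, adjusted p = 0.0279, 1.21-fold). This second comparison shares the libraries with both agents, and its call was lost without replicate 2 or 3 of either group (adjusted p from 0.0983 to 0.138) and in DESeq2 (0.217). Control libraries had 22.2, 24.3 and 28.1 CPM, and neither single agent differed from control by a called amount (0.13 ± 0.09 for TNF, adjusted p = 0.438, and 0.22 ± 0.09 for Senexin B, adjusted p = 0.206).

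The other 4 changes were less stable. OTUD6B-AS1, which had risen with TNF, was at 27.5, 29.2 and 27.3 CPM with both agents (-0.28 ± 0.08 against TNF, adjusted p = 0.0279), beside 26.1, 26.3 and 26.3 with Senexin B alone. The 2 comparisons in which it was called share the TNF libraries, so the rise and the fall are not independent observations. LINC01128 (chromosome 1, 825138 to 859446, plus strand) had 25.1, 23.8 and 26.8 CPM in TNF libraries and 18.8, 18.1 and 21.4 with both agents (-0.37 ± 0.10, adjusted p = 0.0125). SVIL-AS1 (chromosome 10, 29409402 to 29487745, plus strand) had 17.3, 18.2 and 15.4 CPM and then 11.2, 13.5 and 13.5 (-0.41 ± 0.13, adjusted p = 0.0413). ELFN1-AS1 (chromosome 7, 1738630 to 1742291, minus strand) was higher, at 13.9, 13.3 and 15.1 CPM with both agents (0.41 ± 0.13, adjusted p = 0.0367). Its TNF libraries, at 9.54, 11.4 and 10.5 CPM, were also below its control libraries, at 11.6, 12.7 and 14.0, without a call (-0.28 ± 0.13, adjusted p = 0.177). In all 4 genes the libraries of the groups compared did not overlap. The LINC01128 call was lost without TNF replicate 3 or TNF plus Senexin B replicate 1 or 2 (adjusted p up to 0.0901). That of SVIL-AS1 was lost without TNF replicate 1 or 2 or any TNF plus Senexin B replicate (up to 0.217), and that of ELFN1-AS1 without TNF replicate 1 or 3 or any TNF plus Senexin B replicate (up to 0.166). The OTUD6B-AS1 fall was lost without replicate 1 or 3 of either group (up to 0.109). DESeq2 called none of these 4 (0.0614 for LINC01128, 0.153 for SVIL-AS1, 0.141 for ELFN1-AS1 and 0.113 for OTUD6B-AS1). Offsets for GC content also ended the calls of OTUD6B-AS1 (-0.19, adjusted p = 0.179) and ELFN1-AS1 (0.34, 0.102).

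Under Senexin B, TNF changed 2 of the 224 genes (0.893%), where 5.95% of all genes tested were called, 4.27% higher and 1.68% lower. These were LINC00511, which rose, and BAIAP2-AS1, which fell, both given above and both among the 38 genes of 1000 to under 3000 counts (5.26%, against 5.64% of all genes). At 3000 counts or more edgeR and DESeq2 called 0 of 18, against 7.84% of all genes. Leaving out TNF replicate 1, which is in neither group but in the shared fit, gave 5 called genes, as did leaving it out with control replicate 1. At an unadjusted p under 0.05 there were 17 (7.59%), against 14.9% of all genes. MIR100HG was at 0.21 ± 0.07 here (adjusted p = 0.0829), with 45.0, 45.9 and 43.2 CPM under Senexin B and 53.0, 50.2 and 51.4 with both agents. NR2F1-AS1, named after its values were seen, had 19.7 ± 2.56 CPM under Senexin B and 24.5 ± 1.63 with both agents (0.31 ± 0.10, adjusted p = 0.0546). SLC16A1-AS1, named after its values were seen, had 1.99, 1.49 and 1.82 CPM under Senexin B and 3.01, 3.17 and 3.23 with both agents (0.82 ± 0.27, adjusted p = 0.0534). All 3 missed the threshold, and all 3 were called with only the groups compared (0.0246, 0.0277 and 0.0387) or with TNF replicate 1 left out (0.0377, 0.0331 and 0.044). NR2F1-AS1 was also called with a replicate block (0.0369), with GC offsets (0.0451) and without control replicate 1 (0.0433) or Senexin B replicate 1 (0.0366), and SLC16A1-AS1 without TNF replicate 2 (0.0496).

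For the interaction of TNF and Senexin B edgeR called 0 of the 224 genes, where 0.0459% of all genes tested were called (0.0229% higher, 0.0229% lower, and 0.0938% of genes of 3000 counts or more), and DESeq2 also called 0. At an unadjusted p under 0.05 there were 8 (3.57%), against 6.08% of all genes. The smallest p belonged to SLC16A1-AS1. This gene lies against SLC16A1, which encodes a lactate transporter. Beside the values above, it had 2.83, 3.32 and 3.43 CPM in control and 3.12, 1.72 and 2.44 in TNF libraries. Its interaction was 1.26 ± 0.38 (adjusted p = 0.607). The libraries held 12 to 31 counts of the gene each. SLC16A1 was at 261 ± 6.68, 261 ± 4.36, 295 ± 8.05 and 275 ± 8.91 CPM in the same order of groups, and rose with TNF alone (0.18 ± 0.04, adjusted p = 0.0016).

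The plot of fold change against level shows that the widest fitted fold changes were those of genes with low levels. HOXA-AS3, an antisense gene of the HOXA homeobox cluster that was likewise named after its values were seen, had the largest fitted change of all with TNF, -0.98 ± 0.35. It had 20, 19 and 17 counts in control libraries and 5, 10 and 10 in TNF libraries. Its adjusted p of 0.051 just missed the threshold, and it fell under 0.05 with upper-quartile factors (0.0439) or a filter of 1 mean CPM (0.0488).

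**Figure D3:**
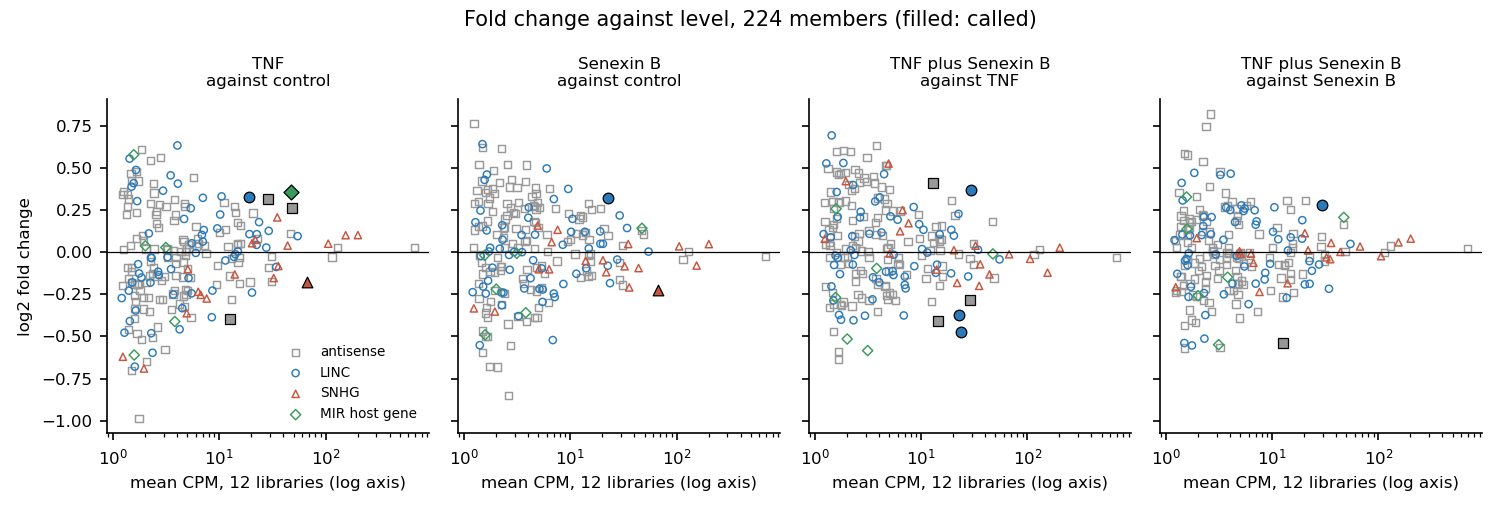
Fitted log2 fold change (vertical) against the mean CPM over the 12 libraries (horizontal, log axis) for the 224 genes in 4 comparisons, with the marker giving the naming scheme and filled markers the called genes. The 6, 2, 6 and 2 called genes lie above 10 CPM, and fold changes beyond 0.5 in size below that level are open.

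**Figure D4:**
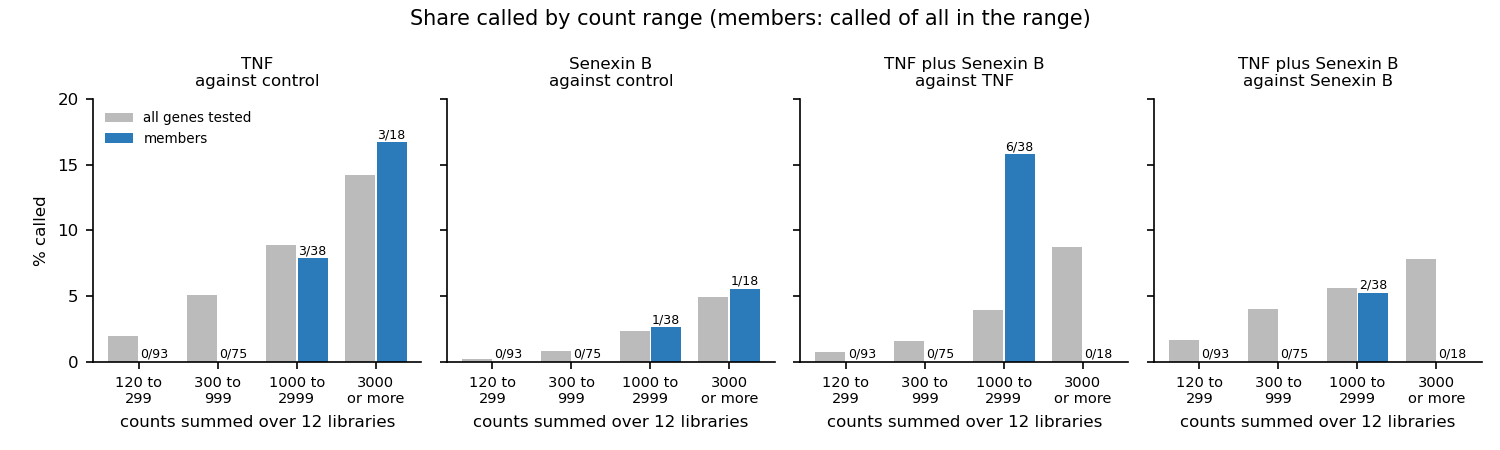
Share of genes called, in percent, by counts summed over the 12 libraries, for all genes tested (grey) and for the 224 long noncoding RNA genes (blue, with the number called of all in the range). The blue bars are at 0 below 1000 counts, and the tallest are 3 of 18 (16.7%) for TNF against control and 6 of 38 (15.8%) for the inhibitor added to TNF.

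The coding gene of an antisense name was in the table for 135 of the 139 antisense genes, and 133 pairs could be placed on the genome. All 133 lay on opposite strands, 104 overlapped in their spans, 87 shared exon bases and 56 had starts within 1000 bases of each other. The library kit does not mark the strand, so where exons overlap the reads of a pair cannot be told apart. In 118 pairs both genes were tested. With TNF, both genes were called in 1 pair, the antisense gene alone in 2, the coding gene alone in 16 and neither in 99. Of the 116 coding neighbours 17 were called (14.7%, 10 higher and 7 lower), beside 3 of the 139 antisense genes (2.16%) and 10% of all genes tested. The standard errors differed as well, with a median of 0.08 in the neighbours and 0.25 in the antisense genes.

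The pair called together was OTUD6B-AS1 and OTUD6B, a deubiquitinase gene, whose starts lie 7 bases apart on opposite strands with no shared exon base. OTUD6B had 62.4, 65.3 and 60.9 CPM in control, 76.1, 71.7 and 69.6 in TNF, 67.6, 60.5 and 61.9 in Senexin B and 68.6, 60.6 and 60.4 with both agents. Its TNF libraries were the highest, as were those of OTUD6B-AS1, and the rise was 0.20 ± 0.06 (adjusted p = 0.0306) beside 0.31 ± 0.08. For the inhibitor added to TNF the coding gene was at -0.19 ± 0.06 (adjusted p = 0.0559) and the antisense gene at -0.28 ± 0.08.

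SVIL-AS1 and SVIL were called in opposite directions by Senexin B in the presence of TNF. SVIL, the gene of the actin-binding protein supervillin, had 48.03, 50.04 and 51.4 CPM in TNF libraries and 63.3, 62.1 and 51.8 with both agents (0.24 ± 0.07, adjusted p = 0.0395), while SVIL-AS1 fell from 17.3, 18.2 and 15.4 to 11.2, 13.5 and 13.5 CPM. Neither gene's groups overlapped, although SVIL in TNF plus Senexin B replicate 3 was close to the TNF libraries. The pair shares 353 exon bases, and its starts are 327379 bases apart. SVIL also rose with TNF alone, by 0.31 ± 0.08 (adjusted p = 0.00447), where SVIL-AS1 was at 0.24 ± 0.12 (adjusted p = 0.245).

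Larger changes of coding neighbours were seen beside antisense genes that were not called. GATA2, a transcription factor gene, fell from 17.1 ± 1.21 to 8.50 ± 0.778 CPM with TNF (-1.001 ± 0.13, adjusted p = 1.95e-08), and GATA2-AS1 had 5.52, 6.29 and 6.08 CPM in control and 4.68, 4.17 and 4.89 in TNF libraries. The latter groups did not overlap, and the difference of -0.39 ± 0.18 had an adjusted p of 0.191. MNX1, a homeobox gene, fell by 0.77 ± 0.23 (adjusted p = 0.0173), with MNX1-AS1 at -0.15 ± 0.29 (adjusted p = 0.818). ZNF503, a zinc finger gene, fell by 0.81 ± 0.10 (adjusted p = 3.05e-09), with ZNF503-AS1 at 0.29 ± 0.32 (adjusted p = 0.648). SGMS1, a sphingomyelin synthase gene, rose by 0.46 ± 0.08 (adjusted p = 3.19e-05), with SGMS1-AS1 at 0.10 ± 0.36 (adjusted p = 0.907). These 4 coding genes were chosen after their values were seen. Whether the genes of a pair differed in their change was not tested.

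NR2F1, an orphan nuclear receptor gene, was called in 3 comparisons, which share libraries. It was at -0.25 ± 0.06 with TNF (adjusted p = 0.0016), 0.39 ± 0.05 with Senexin B (3.26e-07) and 0.55 ± 0.06 for the inhibitor added to TNF (4.12e-11). NR2F1-AS1 was at 0.23 ± 0.11, 0.14 ± 0.11 and 0.22 ± 0.10 in the same comparisons, with no call. For TNF added to the inhibitor NR2F1 was at -0.09 ± 0.05 and was not called (adjusted p = 0.455). Coding genes of lower level stood beside 3 abundant antisense genes. LRRC75A-AS1 had group means from 675 to 700 CPM and LRRC75A from 0.924 to 1.34. FGD5-AS1 had 114 to 117 CPM while FGD5 held at most 2 counts in a library. OIP5-AS1 had 128 to 132 CPM and OIP5 12.6 to 15.0. None of these 3 antisense genes was called in any comparison, the largest of their log2 fold changes being 0.04 in size. NCBP2-AS2, also high per kilobase, went the other way. Its mean over the 12 libraries was 19.4 CPM, beside 134 for NCBP2.

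**Figure D5:**
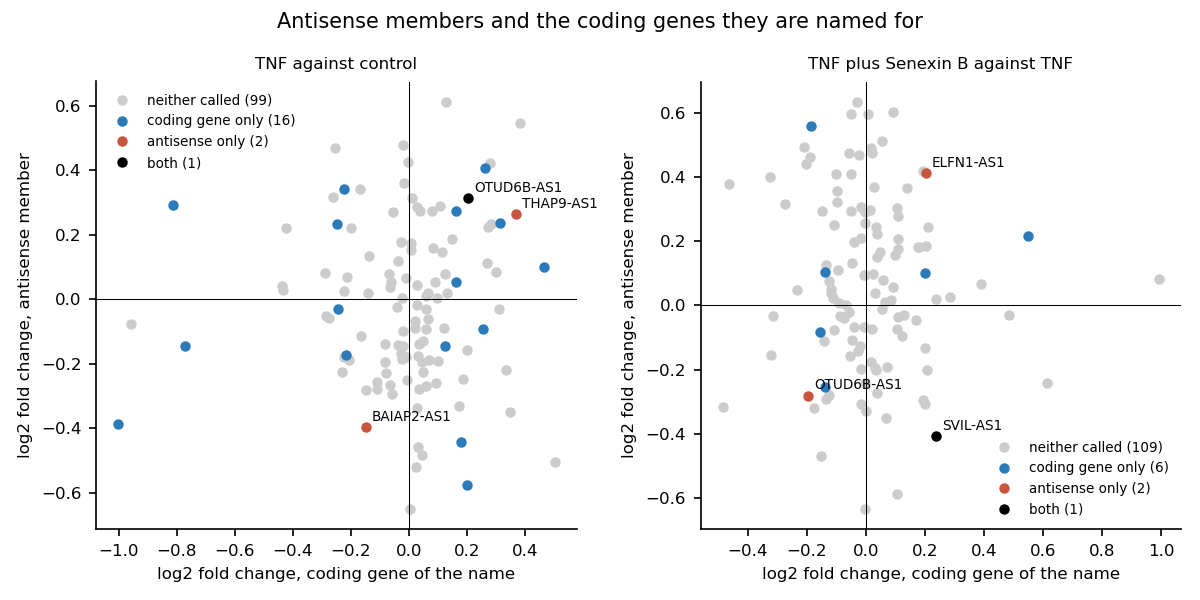
Log2 fold change of each antisense gene (vertical) against that of the coding gene it is named for (horizontal) in 118 pairs, for TNF against control (left) and TNF plus Senexin B against TNF (right), coloured by which gene of the pair was called. The only pair with both called is OTUD6B-AS1 (0.31 beside 0.20) on the left and SVIL-AS1 (-0.41 beside 0.24) on the right.

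For the inhibitor added to TNF the antisense gene alone was called in 2 pairs, the coding gene alone in 6 and neither in 109. For Senexin B against control the coding gene alone was called in 4 of the 118 pairs, and for TNF under Senexin B the antisense gene alone in 1 pair (BAIAP2-AS1) and the coding gene alone in 9. No pair had both genes called in the last 2 comparisons. The sign of the log2 fold change was the same in 59 of 118 pairs for TNF, 55 for Senexin B, 60 for the inhibitor added to TNF and 63 for TNF added to the inhibitor.

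Promoter windows are shown for the 3 genes below because each was called without exception in some comparison when single libraries were left out, and each holds a motif of a factor known in TNF or serum responses. The motifs were chosen with the results known. They were GGG, any 3 bases and TTCC for NF-kB, TGANTCA for AP-1 and GCGGGGGCG for EGR, searched on both strands in RefSeq windows of 300 bases (250 before to 50 after a start, GRCh38.p14). No match overlapped another in the windows shown. NF-kB letters occurred in 7.83% of the 230 windows of these long noncoding RNA genes and 6.52% of all 35116 windows, AP-1 letters in 7.39% and 7.71%, and EGR letters in 4.78% and 5.07%. No other MIR100HG window held a match to any of these motifs. The MIR100HG start shown lies downstream of the miR-100 and let-7a-2 hairpins and upstream of the miR-125b-1 hairpin. Matched letters are in capitals.
MIR100HG (chr11:122100797-122101096, minus strand, 1 of 6 annotated starts, NF-kB letters 184 bases before the start): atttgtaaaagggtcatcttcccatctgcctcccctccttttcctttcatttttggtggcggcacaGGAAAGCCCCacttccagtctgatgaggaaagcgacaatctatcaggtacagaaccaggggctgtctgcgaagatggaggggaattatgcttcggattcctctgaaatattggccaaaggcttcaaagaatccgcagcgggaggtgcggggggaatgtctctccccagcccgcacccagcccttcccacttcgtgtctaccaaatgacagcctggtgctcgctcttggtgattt
LINC00963 (chr9:129488410-129488709, plus strand, EGR letters upstream and AP-1 letters from base 20 after the start): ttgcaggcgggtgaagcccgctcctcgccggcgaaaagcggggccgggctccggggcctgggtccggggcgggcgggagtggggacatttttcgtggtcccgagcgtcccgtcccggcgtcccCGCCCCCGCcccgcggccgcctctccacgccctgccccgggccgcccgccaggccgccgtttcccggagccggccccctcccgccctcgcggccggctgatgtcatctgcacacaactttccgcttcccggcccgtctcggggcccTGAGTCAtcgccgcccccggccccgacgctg
BAIAP2-AS1 (chr17:81034670-81034969, minus strand, EGR letters 68 bases before the start): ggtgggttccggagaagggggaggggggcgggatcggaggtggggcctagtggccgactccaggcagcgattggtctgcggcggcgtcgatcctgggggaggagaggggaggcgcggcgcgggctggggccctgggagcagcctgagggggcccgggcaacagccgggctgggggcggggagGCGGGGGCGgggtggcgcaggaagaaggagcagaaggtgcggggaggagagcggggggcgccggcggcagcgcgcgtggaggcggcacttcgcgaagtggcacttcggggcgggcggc
Of the 10 called genes with a window, 1 held NF-kB letters, 2 AP-1 letters (LINC00963 and SVIL-AS1) and 2 EGR letters, and LINC00511 held none in its window. A gene counts here if any of its windows held the letters, so these counts cannot be set against the shares per window above. A match is a description of these letters and no measurement of binding.

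The remaining abundant LINC genes were not called in any comparison of the fit over all 12 libraries. LINC00998 had group means of 53.2 to 56.9 CPM, LINC01234 of 32.4 to 37.9 and LINC01420, the NBDY gene of a small protein of RNA processing bodies, of 26.1 to 29.1. With GC offsets and a replicate block LINC01234 was called for TNF added to the inhibitor (-0.23, adjusted p = 0.0399), beside -0.22 (0.129) without them. Among the 61 LINC genes the median log2 fold change was -0.01 for TNF, 0.00 for Senexin B and -0.02 for the inhibitor added to TNF, with 1, 1 and 3 called.

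Genes around these RNAs were described from lists. Of 23 tested well-known long noncoding RNAs outside the naming schemes, 1 was called in each comparison (4.35%, against 10%, 3.04%, 5.45% and 5.95% of all genes for TNF, Senexin B, the inhibitor added to TNF and TNF added to the inhibitor). RN7SK, the RNA that holds the elongation kinase P-TEFb inactive and that lacks a poly(A) tail, fell by 1.497 ± 0.54 with TNF (adjusted p = 0.0427) on 2, 9 and 2 counts against 11, 17 and 14 in control libraries. MALAT1 fell by 0.62 ± 0.17 with Senexin B (adjusted p = 0.0415), where control replicate 1 was at 23.2 CPM beside 13.2 and 12.4, and Senexin B libraries at 10.4, 10.5 and 10.2. TUG1 fell by 0.23 ± 0.07 when the inhibitor was added to TNF (adjusted p = 0.0357). NEAT1, the scaffold of paraspeckles, rose by 0.37 ± 0.11 when TNF was added to the inhibitor (adjusted p = 0.0302). With TNF the other 3 lists had 1 call each, 6.25%, 7.69% and 7.14% of their genes against 10% of all. Of 16 small nucleolar RNP genes only NOLC1 was called (0.13 ± 0.03 with TNF, adjusted p = 0.00357). Of 13 microRNA processing genes only TNRC6C, a partner of Argonaute proteins, was called (-0.32 ± 0.08 with TNF, adjusted p = 0.00544), and of 14 nonsense-mediated decay genes only UPF1, the central helicase of that pathway (-0.15 ± 0.04 with TNF, adjusted p = 0.0166). In the other comparisons edgeR called none of the genes of these 3 lists. The counts with an unadjusted p under 0.05 there were 5, 5 and 2 for Senexin B, 4, 0 and 0 for the inhibitor added to TNF, and 1, 0 and 2 for TNF added to the inhibitor, in the same order of lists. Of all genes, 14.2%, 18.9% and 14.9% had such a p in these comparisons.

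Fold changes varied with transcript GC content, least for Senexin B alone. Across the 221 long noncoding RNA genes with a GC value, Spearman's rho between GC content and the log2 fold change was -0.22 for TNF and 0.16 for the inhibitor added to TNF, and across 12453 tested genes it was -0.41 and 0.37. For Senexin B rho was 0.04 in the former and 0.09 in the latter genes, and for TNF added to the inhibitor -0.14 and -0.18. These are descriptions across genes, which share libraries and are not independent replicates. The part of GC content in the calls was not tested beyond the offsets given above.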

How the data were processed

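RNA from 12 HCT116 libraries was made with a TruSeq RNA kit, which selects poly(A) RNA and does not mark the strand, and sequenced. The authors deposited whole-number counts of reads per gene symbol, made with STAR 2.4, SAMtools 1.2 and featureCounts of Subread 1.4.6 on GRCh38, per the submitters' processing notes. The annotation release, strand setting and treatment of multiply mapped reads are not given in the sources used here. Reads from a gene and its antisense partner, or from near-identical copies, can therefore be split or shared. Every column of the table was mapped to a sample (0 were not).

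Genes were filtered with filterByExpr, scaled with TMM factors and fitted over all 4 groups with robust quasi-likelihood in edgeR 4.0.16 (R 4.3.3), with Benjamini-Hochberg adjustment over 13084 genes and a threshold of 0.05. The biological coefficient of variation was 3.62%. Errors of log2 fold changes are Wald standard errors of that fit. CPM uses TMM-scaled totals. DESeq2 1.42.0, upper-quartile factors, other filters, GC offsets, a replicate block and left-out libraries were alternatives, and the scripts were tested on simulated data. Lengths and pairs come from GENCODE 29, promoters and microRNAs from RefSeq. The 4 comparisons and the interaction were fitted as fixed contrasts.

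The genes and lists were chosen with earlier results of these data known. Named are all called genes up to 12 a direction and comparison with at least 1 CPM, the 4 most abundant of each naming scheme, their coding neighbours, selected SNHG and host genes, genes next to the count threshold, and up to 4 called genes a list. Others are said to be chosen after their values were seen.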

Additional observations from a re-analysis of the deposited data

How the results depend on the processing

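In the 4 comparisons MIR100HG (TNF), LINC00963 and LINC00511 (inhibitor added to TNF) and BAIAP2-AS1 (TNF added to the inhibitor) were called without any of the 12 libraries and in 9 other settings each, and no value changed sign. The count of genes called did depend on the setting. The DESeq2 counts are out of 145, 70, 52 and 224 genes with an adjusted p, in the order of the comparisons below. For TNF it was 6, and 2 in DESeq2, 3 with only the groups compared, 3 with GC offsets, 3 with GC offsets and a replicate block, 3 at an adjusted p under 0.01, and 2 to 7 without 1 library (2 without TNF replicate 1 or control replicate 3). For Senexin B it was 2, and 0 in DESeq2, 4 with GC offsets and a replicate block, 0 at an adjusted p under 0.01, and 0 to 3 without 1 library (0 without control replicate 1 or 2 or Senexin B replicate 3). For the inhibitor added to TNF it was 6, and 2 in DESeq2, 3 without control replicate 1 and TNF replicate 1, 2 at an adjusted p under 0.01, and 2 to 7 without 1 library. For TNF added to the inhibitor it was 2, and 1 in DESeq2, 5 with only the groups compared, 5 without control replicate 1 and TNF replicate 1, 5 with GC offsets and a replicate block, 1 at an adjusted p under 0.01, 4 with genes of at least 60 counts, and 1 to 5 without 1 library. The interaction gave 0 in every setting run, of which only the groups compared was not one, since it uses all groups. The pair with both genes called for the inhibitor added to TNF became 0 among pairs with no shared exon bases, an alternative chosen after seeing the data, because SVIL-AS1 and SVIL share some. The causes of the other differences were not tested.

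With a replicate block alone the counts were 6, 2, 6, 3 and 0. Same-numbered libraries deviated together with correlations of -0.0834 to 0.247, and in no fitted comparison did every same-numbered pair exceed 0.1, so the block was kept as an alternative. Control and TNF plus Senexin B, which were not compared with each other, did (0.247, 0.119 and 0.174), and 7 of 12 libraries correlated best with their own number, a hint from the data and not the design. Under 1000 counts the standard errors were largest. Some of these 168 genes were called in alternatives, such as HOXA-AS3 for TNF (0.0439 with upper-quartile factors), and the part of depth in this was not tested.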
